A study of Mus musculus with 10 samples.

Results

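The miR-23, miR-27 and miR-24 miRNAs come from paired genomic clusters, in each of which hairpins of the 3 families lie next to each other. The 8 members described here were taken by name from 1139 mature mouse miRNAs. They are mmu-miR-23a-3p, mmu-miR-23a-5p, mmu-miR-27a-3p, mmu-miR-27a-5p, mmu-miR-24-3p, mmu-miR-24-2-5p, mmu-miR-23b-3p and mmu-miR-27b-3p, written below without the species prefix. Small RNA sequencing covered 5 libraries of CITED4 knockout hearts and 5 of floxed control hearts, where loxP sites flank the gene without removing it. CITED4 is a transcriptional co-regulator. Both groups were male C57Bl6N mice, and their hearts were taken 1 week after transverse aortic constriction, an operation that tightens the aorta and puts the left ventricle under pressure overload. The sources used here do not give the driver of the deletion, the age of the mice or whether each library is a separate animal. A p-value below therefore compares these libraries, whose spread may be technical. All groups had the operation, and its own effect was not analysed here.

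A miRNA is cut from a hairpin as a short duplex, and usually the guide arm is kept while the passenger arm is degraded. The kept arm pairs with messenger RNAs mainly through its seed, bases 2 to 8, and lowers their translation or stability. In mouse heart, miR-23a is known as a target of the calcium-responsive factor NFATc3 that promotes growth of heart muscle cells. The 3p arm of miR-24 is known to lower the structural protein junctophilin-2 and the cell death protein Bim, and miR-27 is known for its part in vessel growth and in lipid metabolism through Pparg. All of these miRNAs are made in many cell types, endothelium among them.

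Mature sequences were matched in RefSeq (GRCm38.p6) for 7 of the 8 members. They are shown 5′ to 3′ because the counts of close relatives depend on how few bases tell them apart; capitals mark the seed.
miR-23a-3p: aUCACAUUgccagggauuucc
miR-27a-3p: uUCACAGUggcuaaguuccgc
miR-27b-3p: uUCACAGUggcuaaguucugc
miR-24-3p: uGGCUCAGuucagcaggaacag
miR-23a-5p: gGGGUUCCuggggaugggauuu
miR-27a-5p: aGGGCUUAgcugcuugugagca
miR-24-2-5p: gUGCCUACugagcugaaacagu
miR-27a-3p and miR-27b-3p share the seed UCACAGU and differ at 1 of 21 bases, C19U, counted from the 5′ end with the miR-27a-3p base first. Among the 1679 mature names in the RefSeq table, these 2 alone hold that seed, while the seed of miR-24-3p, GGCUCAG, stands in 5 names.

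Cluster a lies on chromosome 8 at 84208518 to 84208921 on the plus strand, a span of 404 bases that holds Mir23a, Mir27a and Mir24-2. GENCODE M21 places Mir23a and Mir27a outside any other gene, with Zswim4 on the opposite strand as the nearest protein-coding gene, at 1920 bases from Mir27a. Mir24-2 overlaps an exon of the long noncoding RNA Gm26532 only at its very end. Gm26532 starts at 84208920, beyond the mature miR-24-3p, which ends at 84208896. Cluster b lies on chromosome 13 at 63300484 to 63301275 on the plus strand, a span of 792 bases with Mir23b, Mir27b and Mir24-1. It sits inside 2010111I01Rik on the same strand, Mir23b in an intron and the other hairpins overlapping an annotated exon, and opposite an intron of Fancc. The same miR-24-3p is cut from both clusters, and only the 5p arms of the miR-24 hairpins differ. These hairpins are shown for that reason, with the mature arms in capitals.
Mir24-2: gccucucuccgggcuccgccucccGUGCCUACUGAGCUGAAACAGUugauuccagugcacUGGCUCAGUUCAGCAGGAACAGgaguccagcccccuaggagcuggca
Mir24-1: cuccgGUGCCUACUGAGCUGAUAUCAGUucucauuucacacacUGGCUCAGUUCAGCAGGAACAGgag
Mir24-2 spans chr8:84208815-84208921 and Mir24-1 spans chr13:63301208-63301275. Their 5p arms have 22 bases (Mir24-2) and 23 bases (Mir24-1). Compared base by base from the 5′ end without gaps, they differ at 5 positions, all beyond the seed. Both arms end in CAGU, so an alignment with a gap would show fewer differences.

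The libraries held 8909932 to 18369483 counts in knockouts and 7526091 to 11608900 in controls. Levels are given as CPM, counts per 1000000 counts of a library total scaled with TMM factors, which set the bulk of miRNAs equal between libraries. The heart muscle miRNA miR-1a-3p took 24.8% to 35.5% of all counts in knockouts and 26.96% to 39.3% in controls. Of 457 miRNAs that passed a filter on low counts, 0 had an adjusted p under 0.05 in edgeR's quasi-likelihood test, 0 in DESeq2 and 0 in limma, and 29, or 6.35%, had an unadjusted p under 0.05 in edgeR (45 of 1105 in DESeq2 and 22 of 457 in limma).

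All 8 members passed the filter, and together they took 2.45% ± 0.28 of counts in knockouts and 2.37% ± 0.37 in controls (SD, n = 5 each). The miR-27b-3p row was the highest of the 8, 20th of the 457 miRNAs by mean CPM, followed by miR-24-3p at rank 23. Both made up 84.1% ± 1.32 of the members' counts in knockouts and 83.0% ± 2.05 in controls. Next came miR-27a-3p at rank 42, miR-23a-3p at rank 59, miR-24-2-5p at rank 61 and miR-23b-3p at rank 80. The passenger arms miR-23a-5p and miR-27a-5p stood at ranks 186 and 187. Between neighbours in this order, the ranges of miR-23a-3p and miR-24-2-5p overlapped in both groups, as did those of the passenger arms, and the other neighbours did not overlap. Each count is a whole mature RNA of 21 to 22 bases, so levels need no length correction, but the ligation of adapters can favour some sequences.

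**Figure D1:**
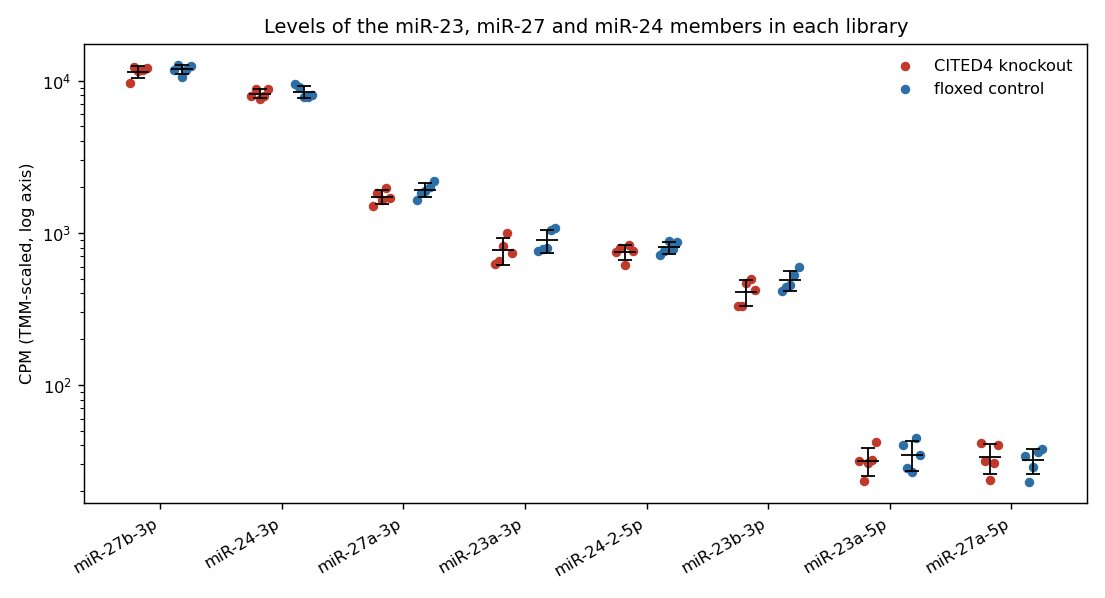
TMM-scaled CPM on a log axis for the 8 members, highest first. Points are libraries (5 knockout left, 5 control right), bars are mean ± SD; in every member the groups overlap.

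None of the 8 members passed the test between knockout and control, against a background of 0% of all tested miRNAs called at an adjusted p under 0.05. At an unadjusted p under 0.05, 0 of 8 passed as well, against 6.35% of all tested, and 0 of 8 had CPM ranges that did not overlap between the groups, against 0.656%. Of the 8, 7 had a lower mean in knockout, against 46.8% of the 457, with a median log2 fold change of -0.11, against 0.028 over all tested miRNAs. With library totals only, miR-24-3p, miR-24-2-5p and miR-27b-3p turned to a higher mean, and the median of all miRNAs moved to 0.14. Arms of 1 hairpin and hairpins of 1 cluster share a transcript, so these signs are not separate observations. In RNA of whole hearts, fewer cells of a type and less RNA per cell cannot be told apart.

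The 3p arms of miR-23b and miR-23a had the most negative log2 fold changes of the 8 members. miR-23b-3p, from the cluster on chromosome 13, had 328, 330, 465, 500 and 417 CPM in knockout replicates 1 to 5, against 415, 442, 456, 531 and 599 CPM in control replicates 1 to 5. Knockout replicates 1 and 2 lay below every control, and the other knockouts fell among the controls. Its mean was 408 ± 78.1 CPM in knockouts and 488 ± 75.3 CPM in controls, a log2 fold change of -0.26 ± 0.16 (SE; 95% interval -0.60 to 0.085; adjusted p = 0.64 in edgeR's test). miR-23a-3p, the NFATc3-linked arm from chromosome 8, had 619, 649, 822, 1002 and 733 CPM in knockouts, against 760, 782, 793, 1050 and 1077 CPM in controls. Here too knockout replicates 1 and 2 were low, with replicate 5 also under every control, while knockout replicate 4 lay near control replicates 4 and 5. Its log2 fold change was -0.22 ± 0.17 (95% interval -0.58 to 0.14; adjusted p = 0.64 in edgeR's test). The passenger arm miR-23a-5p ranged from 23.2 to 41.9 CPM in knockouts and from 26.6 to 44.7 CPM in controls, with a log2 fold change of -0.13 ± 0.20.

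For the miR-27 family the guide arms differed less. miR-27a-3p had 1506, 1824, 1631, 1963 and 1684 CPM in knockouts, against 1647, 1837, 1884, 1994 and 2190 CPM in controls. Of the 5 knockouts, 4 lay below the control mean, and the groups overlapped. Its log2 fold change was -0.15 ± 0.13 (95% interval -0.42 to 0.12; adjusted p = 0.65 in edgeR's test). miR-27b-3p, whose overexpression in mouse heart muscle is known to cause hypertrophy, had 9610, 12290, 11559, 11829 and 12137 CPM in knockouts, against 11752, 12698, 10539, 11806 and 12523 CPM in controls. Knockout replicate 1 was the lowest of the 10 libraries and the rest lay within the control range. The log2 fold change of -0.047 ± 0.13 became 0.040 without knockout replicate 1. In fold terms its 95% interval ran from 0.801 to 1.17. miR-27a-5p, the passenger arm, was the member with a higher mean in knockout, at 33.5 ± 7.40 CPM in knockouts and 31.9 ± 6.06 CPM in controls, a log2 fold change of 0.071 ± 0.20 that became -0.010 without control replicate 2.

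The guide arm miR-24-3p, which restrains junctophilin-2, had 7936, 8799, 7543, 7973 and 8848 CPM in knockouts, against 9471, 9155, 7873, 7861 and 8047 CPM in controls. Control replicates 1 and 2 were above every knockout, and control replicates 3 to 5 lay among the knockouts. Its log2 fold change was -0.045 ± 0.12, an interval in fold terms from 0.807 to 1.16 (adjusted p = 0.86 in edgeR's test). Leaving out knockout replicate 3 turned this estimate to 0.0094, leaving out control replicate 1 to 0.012 and leaving out control replicate 2 to 0.00073. miR-24-2-5p, the arm made only by the cluster on chromosome 8, had 746, 800, 616, 837 and 754 CPM in knockouts, against 714, 764, 881, 781 and 873 CPM in controls. Knockout replicate 3 was the lowest of the 10 and the groups overlapped, with a log2 fold change of -0.096 ± 0.12.

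Of the other arms of the same hairpins, 3 were tested and none passed in edgeR's test (adjusted p from 0.90 to 0.99). miR-24-1-5p, the arm made only by the chromosome 13 cluster, was at 33.0 ± 5.03 CPM in knockouts and 33.9 ± 3.87 CPM in controls. miR-27b-5p was at 41.0 ± 3.40 CPM in knockouts and 41.8 ± 4.15 CPM in controls, and miR-23b-5p at 1.41 ± 0.38 CPM in knockouts and 1.41 ± 0.84 CPM in controls. Their log2 fold changes were -0.041 ± 0.15, -0.030 ± 0.14 and 0.018 ± 0.45 (SE). From the opposite strand of the miR-24 hairpins, miR-3074-5p had 0 to 10 counts per knockout library and 3 to 13 per control library, and miR-3074-1-3p had 1 to 17 counts in knockouts and 0 to 7 in controls. These 2 did not pass the filter. A count of 0 of miR-3074-5p in knockout replicate 5 allowed up to 0.163 CPM (3 counts of the unscaled total).

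**Figure D2:**
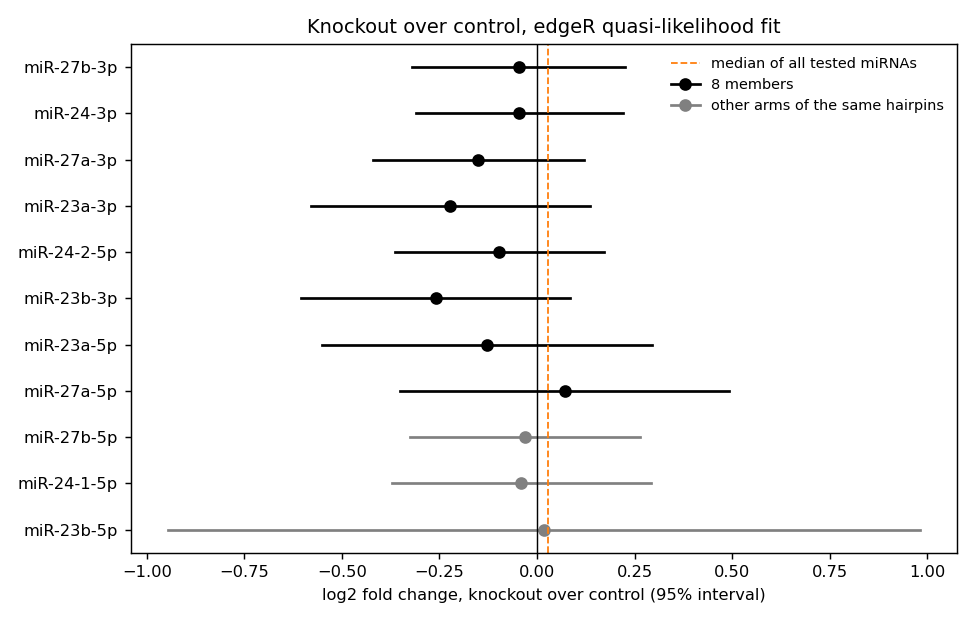
Log2 fold change, knockout over control, with its 95% interval from edgeR's quasi-likelihood fit, for the 8 members (black) and 3 other arms (grey). Every interval holds 0; the dashed line is the median of all tested miRNAs, 0.028.

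Counting error was smaller than the spread between libraries for each of the 8 members. The smallest count of a member was 227, for miR-23a-5p in control replicate 3, where counting error is 6.64% of the value. The coefficient of variation of miR-23a-5p between libraries was 20.9% in knockouts and 22.0% in controls. For miR-24-3p it was 7.01% in knockouts and 9.09% in controls, with a counting error of at most 0.396%.

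Ratios within a library need no scaling and ask whether paralogs, hairpins of a cluster or arms of a hairpin kept their proportions. In 7 ratios, 0 differed between knockout and control, with exact two-sided permutation p values from 0.16 to 0.67 and an adjusted p of 0.67 for each over the 7; the smallest p that 5 against 5 libraries allow is 0.0079. miR-23a-3p exceeded its paralog miR-23b-3p by 1.76 to 2.003 times in knockouts and by 1.74 to 1.98 times in controls. For miR-27 the order was turned, with miR-27b-3p at 6.03 to 7.21 times miR-27a-3p in knockouts and 5.59 to 7.13 times in controls. The 5p arms of miR-24 favoured chromosome 8, with miR-24-2-5p at 95.8% ± 0.38 of both arms' counts in knockouts and 95.9% ± 0.30 in controls. The counted proportion of a to b differed by family, with shares that did not overlap between families in either group. How reads that fit more than 1 paralog were counted is not given in the sources used here, so reads could be split within the miR-23 pair and within the miR-27 pair.

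Within clusters, miR-27a-3p was 1.96 to 2.81 times miR-23a-3p in knockouts and 1.90 to 2.38 times in controls. miR-27b-3p was 23.7 to 37.3 times miR-23b-3p in knockouts and 20.9 to 28.7 times in controls. The ratio of miR-23b-3p over miR-27b-3p had a log2 mean of -4.83 ± 0.26 in knockouts and -4.61 ± 0.21 in controls (exact permutation p = 0.16, adjusted p = 0.67, lower in 4 of 5 knockouts). Its difference of -0.22 became -0.12 without knockout replicate 2. The passenger arm made up 4.07% ± 0.99 of both miR-23a arms in knockouts and 3.78% ± 0.77 in controls. For miR-27a this share was 1.94% ± 0.54 in knockouts and 1.65% ± 0.29 in controls. For miR-27b it was 0.359% ± 0.051 in knockouts and 0.351% ± 0.017 in controls. miR-24-3p exceeded miR-24-2-5p by 9.52 to 12.2 times in knockouts and 8.93 to 13.3 times in controls, a ratio that mixes both clusters in miR-24-3p.

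**Figure D3:**
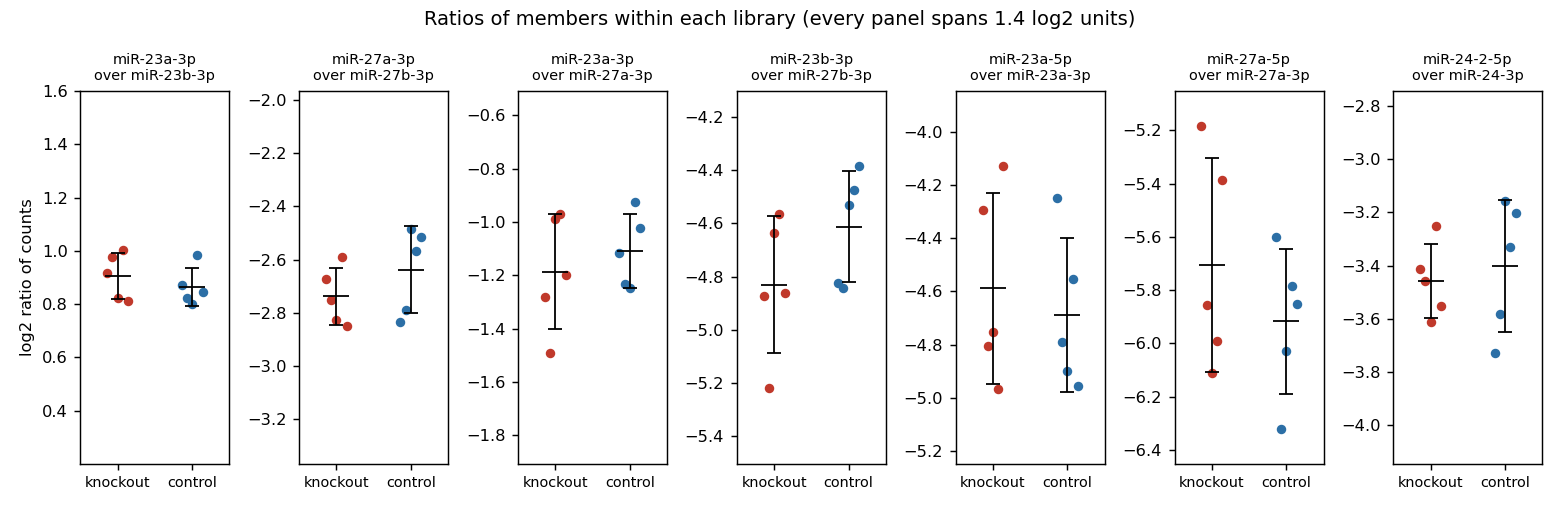
Log2 ratio of counts (0.5 added to each) for 7 pairs of members, knockout left and control right, points being libraries and bars mean ± SD. Groups overlap in all 7 panels, and each panel spans the same height.

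How far the 3p members varied together was read from deviations of log2 CPM from the group mean over 10 libraries. Of 6 pairs, 2 passed a permutation test with Benjamini-Hochberg adjustment. It moved the 10 deviations freely across both groups. The group means taken out were not allowed for, so its p values may be somewhat too small. The test was against no correlation, and the share of all miRNA pairs that would pass was not counted. Among 449 miRNAs outside the members, the highest r was 0.969 for miR-23a-3p and 0.908 for miR-27a-3p. miR-23a-3p and miR-23b-3p moved together (Pearson r = 0.953, permutation p = 3e-05, adjusted p = 0.00018; Spearman rho = 0.988, permutation p = 3e-05, adjusted p = 0.00018), with r = 0.919 without the 2 libraries farthest from the median, knockout replicate 4 and control replicate 5. Their mature sequences are known to be near-identical. Reads that fit both may be split between the rows, so r cannot show that the 2 RNAs varied together. miR-23a-3p took 63.7% to 66.7% of the pair's counts in knockouts and 63.5% to 66.4% in controls. Summed before the fit, the pair had a log2 fold change of -0.22 ± 0.17 and the miR-27a-3p and miR-27b-3p pair one of -0.048 ± 0.12.

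miR-23a-3p and miR-27a-3p, from the same cluster, had r = 0.750 (permutation p = 0.015, adjusted p = 0.045), but rho = 0.624 (permutation p = 0.060, adjusted p = 0.18). Without knockout replicate 4 and control replicate 5, r was 0.453. With library totals only, r was 0.373 and the pair did not pass (adjusted p = 0.59). It passed the permutation test with the authors' normalized values (r = 0.761, adjusted p = 0.032). The same held with the group means kept in (r = 0.802, adjusted p = 0.016). With knockout replicate 2 or 3 alone left out, the adjusted p stayed under 0.05. With each of the other 8 libraries alone left out, r was 0.641 to 0.763 and the adjusted p 0.065 to 0.19.

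miR-24-3p had negative coefficients with miR-23a-3p (r = -0.535, permutation p = 0.12; rho = -0.430, p = 0.22 by permutation) and with miR-23b-3p (r = -0.542, permutation p = 0.10; rho = -0.442, p = 0.21 by permutation), neither past the adjusted threshold (0.15 for each r and 0.26 for each rho). Leaving out control replicates 1 and 2 gave r = -0.383 and r = -0.398. With library totals only, these coefficients were -0.172 (permutation p = 0.66) and -0.113 (permutation p = 0.75). With 1 library alone left out, r of miR-24-3p ranged from -0.676 to -0.453 with miR-23a-3p. With miR-23b-3p it ranged from -0.707 to -0.445. The smallest adjusted p of the permutation test there was 0.086 for either pair. miR-27a-3p with miR-27b-3p had r = 0.514 (permutation p = 0.12, adjusted p = 0.15; rho = 0.455, permutation p = 0.19, adjusted p = 0.26) and miR-23b-3p with miR-27b-3p r = 0.376 (permutation p = 0.30, adjusted p = 0.30; rho = 0.152, permutation p = 0.68, adjusted p = 0.68). Without knockout replicate 4 and control replicate 5 these became 0.473 and 0.260. Without knockout replicate 1 alone, r was 0.235 for miR-27a-3p with miR-27b-3p and 0.022 for miR-23b-3p with miR-27b-3p. Without knockout replicate 2 alone, r was 0.617 for miR-23b-3p with miR-27b-3p. With library totals only, miR-27a-3p with miR-27b-3p had r = 0.708 (permutation p = 0.022, adjusted p = 0.067).

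**Figure D4:**
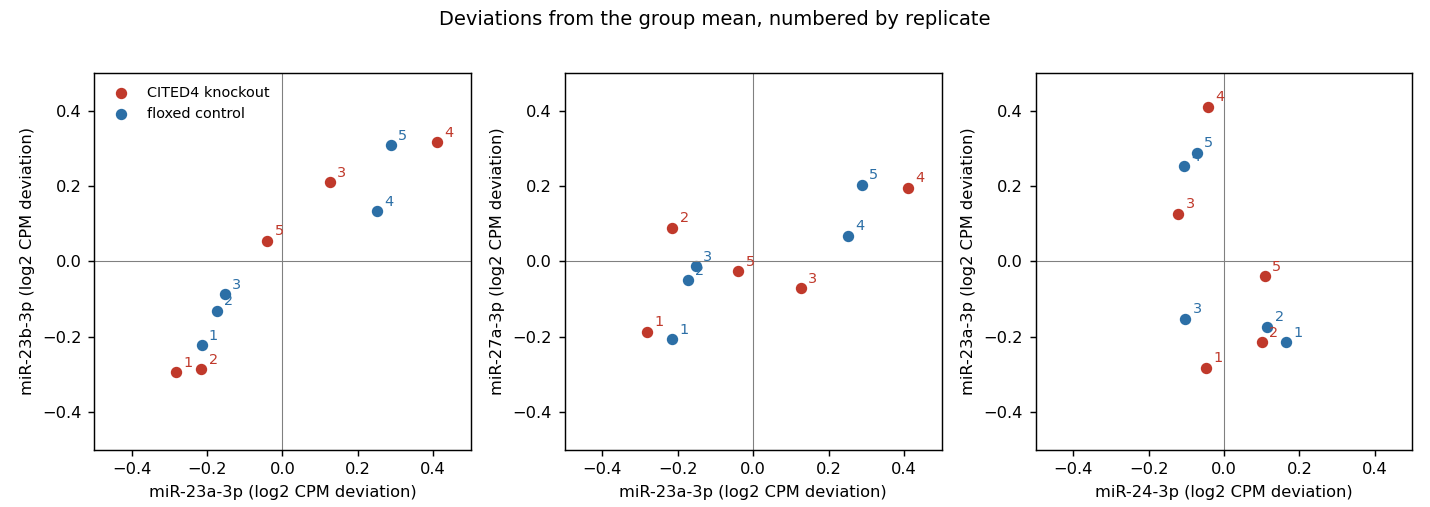
Deviations of log2 CPM from the group mean for 3 pairs of members, one point per library with its replicate number. The miR-23 paralogs fall on a line (r = 0.953), miR-23a-3p and miR-27a-3p less so (r = 0.750), and miR-24-3p with miR-23a-3p has r = -0.535.

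Knockout replicate 4 and control replicates 4 and 5, the highest of their groups in miR-23a-3p, had the highest miR-1a-3p shares of their groups, at 35.5%, 39.3% and 38.0% of counts. As a share of all counts without scaling, miR-23a-3p was at 0.098% in knockout replicate 4, the highest knockout. In control replicates 4 and 5 it was at 0.083% and 0.088%, within the control range of 0.077% to 0.090%. The part of muscle content in the miR-23a-3p values was not tested. The summed heart muscle markers (miR-1a-3p, miR-133a-3p, miR-208a-3p and miR-499-5p, all 4 detected) ran from 220406 to 386502 CPM in knockouts and from 242432 to 503939 CPM in controls. This sum is mostly miR-1a-3p. Singly, all 4 had lower means in knockout, with a median log2 fold change of -0.40, and so did both erythroid markers, with a median of -0.57. None of these 6 passed in edgeR's test, and their part in the lower means of the members was not tested. Relatives outside the heart muscle list did not share 1 direction. In knockout, miR-208b-3p and miR-208b-5p had higher means (log2 fold changes of 0.35 and 0.25). In contrast, miR-133b-3p and miR-208a-5p had lower ones (-0.56 and -0.52). Both endothelial arms of miR-126a summed to 25223 to 34443 CPM in knockouts and 26220 to 35318 CPM in controls. Fibroblast markers miR-199a-3p and miR-214-3p summed to 11858 to 23220 CPM in knockouts and 8829 to 21971 CPM in controls. Smooth muscle markers miR-143-3p and miR-145a-5p summed to 26124 to 32865 CPM in knockouts and 27826 to 33670 CPM in controls. The 4 leukocyte markers summed to 1302 to 1672 CPM in knockouts and 1452 to 1481 CPM in controls, and the erythroid markers miR-144-3p and miR-486a-5p to 11419 to 24971 CPM in knockouts and 13614 to 32735 CPM in controls. The liver miRNA miR-122-5p was at 39.2 to 68.1 CPM in knockouts and 29.0 to 108 CPM in controls. Both fibroblast markers had higher means in knockout, with a median log2 fold change of 0.34. Of the leukocyte markers, 2 were higher and 2 lower. Both endothelial arms and both smooth muscle markers were lower, with medians of -0.15 and -0.13, and miR-122-5p was lower at -0.20. The other arms of the smooth muscle markers, miR-143-5p and miR-145a-3p, had higher means in knockout, at 0.12 and 0.10. None of these markers passed in edgeR's test.

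By the same deviations, the miRNAs most like each 3p member were sought among 449 others, as a description over 10 libraries that share depth and scaling. Closest to miR-23a-3p were miR-499-5p, the muscle miRNA within the myosin gene Myh7b (r = 0.969), miR-192-5p (0.954) and miR-30c-1-3p (0.943). The nearest to miR-23b-3p were miR-192-5p (r = 0.962), miR-181b-5p (0.948) and miR-181d-5p (0.943). For miR-27a-3p they were miR-486a-3p (r = 0.908), miR-144-3p, known from red blood cells (0.906), and miR-32-5p (0.875). miR-24-3p was nearest to miR-199a-3p and miR-199b-3p, rows with the same counts that are known from fibroblasts (r = 0.915), and to miR-152-3p (0.899). miR-27b-3p had the loosest neighbours, miR-191-3p (r = 0.783, a rare miRNA at 3.94 CPM), miR-28a-3p (0.772) and miR-322-3p (0.769).

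Beside the clusters, 12 miRNAs linked to growth of the heart were read in the same fit. None passed in edgeR's test. A lower mean in knockout was found for 8 of the 12, against 46.8% of all tested miRNAs, and a higher mean for 4, and their median log2 fold change was -0.12, against 0.028 over all tested miRNAs. An unadjusted p under 0.05 was found for 3 of the 12, against 29 of 457 (6.35%) over all tested. These were miR-133a-3p, miR-30d-5p and miR-212-3p, with log2 fold changes of -0.46, -0.52 and -0.33. The 12 were chosen with earlier results of these data known, so their contrast with all tested miRNAs is no test of the list. Among them, miR-133a-3p and miR-208a-3p are also heart muscle markers above.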

How the data were processed

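The authors deposited a table of raw read counts for 1139 mature miRNAs in 10 libraries and a table of normalized signal, each value being the deposited count divided by a DESeq2 size factor per library (equal within a relative tolerance of 1e-09). Per the submitters' processing notes, cutadapt 1.10, Bowtie, STAR, DESeq2 and GRCm38 were used, without a role for each. Columns were matched to libraries by title. Knockout was compared with control in edgeR 4.0.16 (R 4.3.3; filterByExpr, 457 miRNAs kept, TMM scaling, quasi-likelihood test, genotype as the only term, Benjamini-Hochberg over all 457), and only the members are printed. SE is the log2 fold change over the square root of F. Log2 CPM used a prior count of 2. Ratios (0.5 added to counts) were tested by exact permutation of 252 assignments, correlations with 100000 resamples. DESeq2 1.42.0 and limma 3.58.1 (normalized signal plus 1, log2) were alternatives. Pairs of libraries in a group differed beyond sampling noise (chi-square per degree of freedom at least 134 among knockouts and 66.3 among controls). Intervals cover the spread between libraries, not amplification bias. Members and lists were chosen with earlier results of these data known. Named miRNAs are the members, the other arms of their hairpins, the 3 most alike per 3p member, markers with some of their relatives and other arms, and a growth list. The mature miR-3074-2-3p was not analysed here.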

Additional observations from a re-analysis of the deposited data

Results flagged for a closer look

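For each member, other arm, ratio and share, the most distant library of a group was found and its gap to the next library divided by the whole range of that group. This quotient passed Dixon's 95% critical value for 5 libraries, 0.71, in 4 of 58 groups, and about 1 in 20, or 2.9, would do so by chance. Knockout replicate 1 had 9610 CPM of miR-27b-3p, against 11559 to 12290 CPM in the other knockouts (0.727). For miR-27b-5p, the other arm of that hairpin, knockout replicate 4 had 34.9 CPM against 42.0 to 43.1 CPM (0.859), and control replicate 3 had 34.5 CPM against 43.0 to 44.8 CPM (0.817). The library that stood apart thus differed between the arms. miR-3074-1-3p was at 1.61 CPM, or 17 counts, in knockout replicate 4, against 0.098 to 0.49 CPM in the other knockouts (0.738).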

How the results depend on the processing

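In 18 alternative fits 0 miRNAs passed, with 6 to 102 at an unadjusted p under 0.05, against 29. The fits tested unlike numbers of miRNAs. The 102 were of 1105 without a filter, the 6 of 468 without control replicate 5 and the 29 of 457. The members did not pass in any fit (smallest adjusted p 0.32, for miR-23b-3p with the replicate block). Directions turned in 8 of 144 values. These values count the fit of each summed paralog pair under both of its members. With library totals only, the log2 fold changes that turned were 0.060 for miR-24-3p, 0.024 for miR-24-2-5p and 0.065 for miR-27b-3p. With 1 library left out, log2 fold changes ranged from -0.061 to 0.012 for miR-24-3p, from -0.058 to 0.040 for miR-27b-3p, from -0.010 to 0.20 for miR-27a-5p, from -0.23 to -0.00073 for miR-23a-5p, from -0.12 to -0.010 for miR-24-2-5p, from -0.19 to -0.078 for miR-27a-3p, from -0.32 to -0.13 for miR-23a-3p and from -0.33 to -0.16 for miR-23b-3p. Log2 ratio differences ranged from -0.016 to 0.21 for miR-23a-5p over miR-23a-3p and from -0.14 to 0.0047 for miR-24-2-5p over miR-24-3p, with 0 of 7 past the threshold in any alternative.

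The correlation of miR-23a-3p with miR-27a-3p ranged from 0.641 to 0.898 with 1 library left out and was 0.373 with library totals only (adjusted p = 0.59), and that of miR-23b-3p with miR-27b-3p turned to -0.065 there. Library totals also gave r = -0.172 for miR-24-3p with miR-23a-3p, -0.113 with miR-23b-3p, and 0.708 for miR-27a-3p with miR-27b-3p. With 1 library left out miR-23b-3p with miR-27b-3p ranged from 0.022 to 0.617, and miR-27a-3p with miR-27b-3p from 0.235 to 0.594. The cause was not tested. Knockouts and controls carry the same replicate numbers, whose meaning the labels leave out. Deviations of same-number libraries had correlations from -0.12 to 0.45, and their own number was the best match for 4 of 10 libraries. The comparison has no block because the labels do not say what the numbers mark. These correlations do not settle whether they mark pairs. With the replicate block the count of 29 became 72, no call changed, and miR-23a-3p had a log2 fold change of -0.23 and miR-23b-3p one of -0.27. The exact sign-flip test of that block gave p = 0.0625 for miR-23b-3p over miR-27b-3p, the smallest that 5 pairs allow (adjusted p = 0.44).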
